A study of Danio rerio with 6 samples.

Results

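The 8 genes described here encode transcription factors of the ventral, non-neural ectoderm of the zebrafish embryo: the AP-2 factors tfap2a and tfap2c, the GATA factors gata2a and gata3, the epidermal factor tp63, the Dlx homeobox factors dlx3b and dlx5a, and the forkhead factor foxi1. They were chosen by name, and each matched 1 of the 31953 genes in the files. RNA was sequenced from pooled Tg(krt18:krt18-GFP) embryos at 6 hours post fertilisation (hpf), around the start of gastrulation. In this line the krt18 promoter drives a GFP-tagged keratin, so that GFP marks the enveloping layer (EVL), the outermost epithelial sheet of the embryo. About 1500 embryos were dissociated and sorted, and 10000 GFP+ cells were collected. The EVL group holds 3 libraries of GFP+ cells and the non-EVL group holds 3 libraries of GFP- cells, all from the same transgenic line and stage, with no drug and no mutant allele named. The non-EVL group is a mixture of every other cell of the embryo, deep ectoderm, mesoderm and endoderm included, so its value for a gene is an average over them.

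In the early vertebrate embryo, high bone morphogenetic protein (BMP) signalling on the ventral side directs ectoderm towards epidermis, and low signalling on the dorsal side leaves it to become neural plate. AP-2, GATA, Dlx and Foxi factors are switched on in the ventral ectoderm and its border, where they act in epidermal, placode and neural crest development, and p63 is required for the basal layer of the epidermis. The EVL gives rise to the periderm, the outer layer of the larval skin. The comparison sets this surface layer against the other cells of the embryo.

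Values are normalised reads: whole reads assigned to a gene, divided by a scaling factor for each library. The EVL libraries held 32.2M, 38.3M and 34.5M reads and the non-EVL libraries held 36.7M, 38.9M and 46.1M, of which 1 gene, AC024175.4, took between 30.1% and 42.7%. The keratin gene of the reporter, krt18, averaged 354580 ± 233210 normalised reads in EVL libraries and 11380 ± 1373 in non-EVL libraries (SD, n = 3 each; log2 fold change 4.78; limma, adjusted p = 0.000647). Endogenous krt18 and the transgene cannot be told apart in these counts. Summed over 22 EVL and periderm markers, the 3 EVL libraries stood at 2.71M, 1.15M and 0.813M normalised reads, and the non-EVL libraries lay between 0.0421M and 0.0575M, and 21 of these markers were called higher. The level of these markers in non-EVL libraries was a median of 3.10% of that in EVL libraries, with a range of 1.89% to 27.2%. In the other direction, 11 mesoderm markers in EVL libraries stood at a median of 55.4% of their non-EVL level, with a range of 36.6% to 108%. How much of the EVL value of a gene came from other cells in the GFP+ sort was not tested. A gene was called when its adjusted p in limma was under 0.05. Of 15971 tested genes, 1405 were called higher and 108 lower in EVL, so that 92.9% of calls were higher. Scaled by library size alone (edgeR), 1253 were called higher and 930 lower, a share of 57.4%, and after upper quartile scaling (limma) 1327 were higher and 572 lower, a share of 69.9%.

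The AP-2 factors tfap2a and tfap2c stood on opposite sides of the comparison. tfap2a, which acts in epidermal and neural crest development, had 15882, 7435 and 7737 normalised reads in EVL libraries 1, 2 and 3, against 5207, 3697 and 4999 in non-EVL libraries 1, 2 and 3. Every EVL library was above every non-EVL library, and EVL library 1 stood well above the other EVL libraries, which lay close together. The means were 10351 ± 4792 in EVL and 4634 ± 818 in non-EVL libraries (SD, n = 3 each), a 2.12-fold difference. This difference did not pass the threshold (log2 fold change 1.08, 95% interval 0.39 to 1.77; limma, adjusted p = 0.0645). Over 21 alternatives the log2 value ran from 0.73 to 1.31 and the adjusted p from 0.00374 to 0.221, and DESeq2, 1 of those alternatives, called it higher (log2 fold change 1.17, adjusted p = 0.0121).

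tfap2c, the AP-2 paralog that shares roles with tfap2a in non-neural ectoderm, had 2380, 1840 and 2504 normalised reads in EVL libraries, against 4395, 4519 and 4800 in non-EVL libraries. All 3 EVL libraries lay below all 3 non-EVL libraries, and both groups were tight. tfap2c was lower in EVL, with means of 2241 ± 353 in EVL and 4572 ± 207 in non-EVL libraries (SD, n = 3 each; log2 fold change -1.04, 95% interval -1.43 to -0.65; limma, adjusted p = 0.00598). Its level in EVL was 49.0% of that in non-EVL. Over the 21 alternatives the log2 value ran from -1.33 to -0.90 and the adjusted p from 1.45e-05 to 0.106. The 1 fit that did not call it left out both libraries numbered 2, and it called 0 of all tested genes higher and 0 lower. Only 11.1% of tested genes had a smaller spread within groups (SD of 0.17 on the log2 scale).

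**Figure D1:**
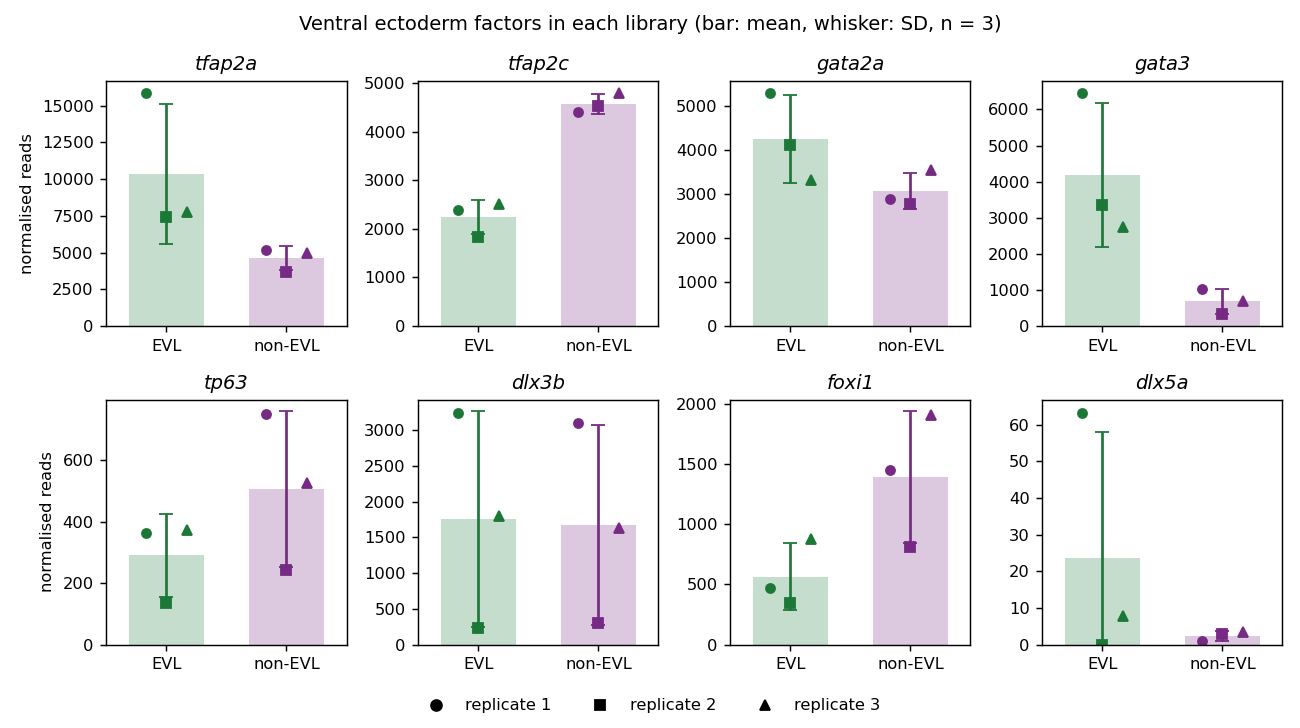
Normalised reads of the 8 factors in each library, 1 panel per gene with its own linear axis from 0, EVL in green on the left and non-EVL in purple on the right of each panel, with bars for group means, whiskers for the SD (n = 3) and a point for each library, its shape giving the replicate number. The groups are apart for tfap2a, tfap2c and gata3 and overlap for the other 5, and dlx3b runs between 234 and 3248 in EVL and between 300 and 3104 in non-EVL libraries.

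Within each library the balance of the AP-2 paralogs differed between the groups. Of the reads of tfap2a and tfap2c together, tfap2a took 87.0% (95% Wilson interval 86.4 to 87.5), 80.2% (79.3 to 81.0) and 75.6% (74.7 to 76.4) in EVL libraries 1, 2 and 3. The same share was 54.2% (53.3 to 55.2), 45.0% (44.0 to 46.0) and 51.02% (50.2 to 51.8) in non-EVL libraries. The intervals cover counting error only, and no EVL share came near a non-EVL share. The log2 ratio of tfap2a to tfap2c averaged 2.13 ± 0.56 in EVL and 0.00 ± 0.27 in non-EVL libraries (SD, n = 3 each), a difference of 2.12 (two-sided exact permutation p = 0.1, the smallest that 3 against 3 libraries can give). The sum of both paralogs was 12592 ± 4934 normalised reads in EVL and 9206 ± 863 in non-EVL libraries, a difference within the spread (two-sided exact permutation p = 0.3).

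The GATA pair differed in another way: gata3 was higher in EVL, while gata2a was not called. gata3, a zinc-finger factor of non-neural ectoderm, had 6463, 3360 and 2729 normalised reads in EVL libraries, against 1025, 322 and 694 in non-EVL libraries. The lowest EVL library was 2729 and the highest non-EVL library 1025, so the groups did not overlap. The means were 4184 ± 1999 in EVL and 680 ± 352 in non-EVL libraries (SD, n = 3 each), a 6.36-fold difference (95% interval 3.07 to 13.2; log2 fold change 2.67; limma, adjusted p = 0.00808). Without EVL library 1, the highest, gata3 was still called higher (log2 fold change 2.30; limma, adjusted p = 0.0219, within a range of 1.25e-06 to 0.0565 over all 21 alternatives).

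gata2a, a marker of ventral ectoderm and later a blood and endothelial factor, had 5304, 4114 and 3325 normalised reads in EVL libraries, against 2890, 2769 and 3540 in non-EVL libraries. EVL library 3 lay below non-EVL library 3, so the groups overlapped. The means were 4248 ± 996 in EVL and 3066 ± 415 in non-EVL libraries (SD, n = 3 each), and this difference missed the threshold (log2 fold change 0.45, 95% interval -0.02 to 0.92; limma, adjusted p = 0.238).

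Of the reads of gata3 and gata2a together, gata3 took 54.9% (95% Wilson interval 53.9 to 56.0), 45.0% (43.8 to 46.1) and 45.1% (43.8 to 46.4) in EVL libraries. In non-EVL libraries it took 26.2% (24.9 to 27.5), 10.4% (9.44 to 11.5) and 16.4% (15.5 to 17.3). As for the AP-2 pair, no share of one group reached the range of the other. The log2 ratio of gata3 to gata2a averaged -0.10 ± 0.33 in EVL and -2.31 ± 0.80 in non-EVL libraries (SD, n = 3 each), a difference of 2.22 (two-sided exact permutation p = 0.1, the smallest possible). The sum of the pair was 8432 ± 2974 normalised reads in EVL and 3747 ± 589 in non-EVL libraries (two-sided exact permutation p = 0.1).

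**Figure D2:**
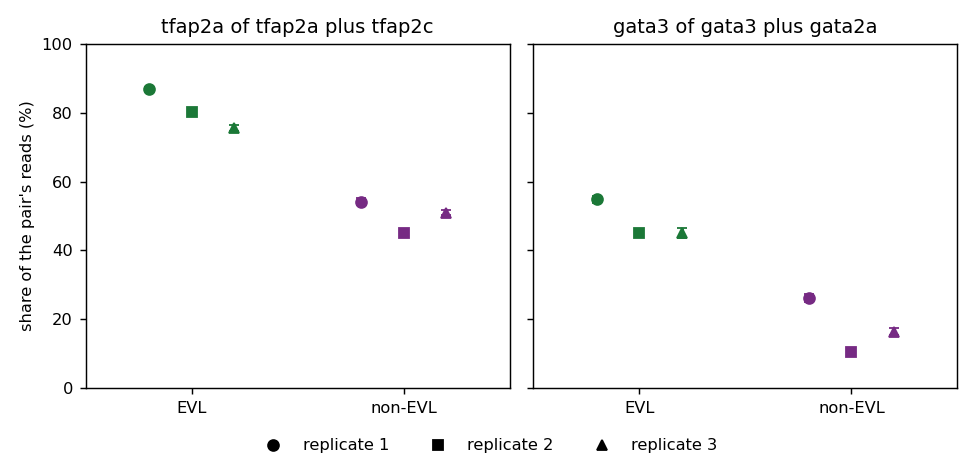
Share of reads taken by the first gene of each pair in each library, tfap2a of tfap2a plus tfap2c and gata3 of gata3 plus gata2a, in percent from 0 to 100, EVL in green on the left and non-EVL in purple on the right, with 95% Wilson intervals as bars. The tfap2a share lies between 75.6% and 87.0% in EVL and between 45.0% and 54.2% in non-EVL libraries, and the gata3 share between 45.0% and 54.9% in EVL and between 10.4% and 26.2% in non-EVL libraries.

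tp63, whose product maintains basal epidermal stem cells, was read in every library. It had 362, 134 and 374 in EVL libraries, against 751, 244 and 525 in non-EVL libraries. EVL libraries 1 and 3 lay above non-EVL library 2, so the groups overlapped, and in both groups library 2 was the lowest. The means were 290.2 ± 135 in EVL and 507 ± 254 in non-EVL libraries (SD, n = 3 each), and the difference missed the threshold (log2 fold change -0.80, with a 95% interval of 0.25 to 1.32 for the ratio of EVL to non-EVL; limma, adjusted p = 0.413). Without EVL library 2 the log2 value was -0.32 and without non-EVL library 2 it was -1.25, and tp63 was called under none of the 21 alternatives (adjusted p between 0.0744 and 0.737). In bulk libraries, fewer cells that express a gene and less RNA of it in each cell cannot be told apart.

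dlx3b, a homeobox gene of the ventral ectoderm border that acts in ear and nose placodes, had overlapping groups and a wide range within each. It had 3248, 234 and 1798 normalised reads in EVL libraries, against 3104, 300 and 1626 in non-EVL libraries. Library 2 held 9.26% of the mean of the other EVL libraries, and library 2 of the non-EVL group held 12.7% of the mean of the others there. The log2 fold change was -0.05, with a 95% interval of -2.54 to 2.44 in the fit on the group alone (limma, adjusted p = 0.986). That interval leaves room for a difference of several fold either way. With the replicate number added to the fit, the interval was -0.47 to 0.38 (limma, adjusted p = 0.882). The sign turned positive with edgeR (log2 fold change 0.11), with DESeq2 and without some single libraries, such as EVL library 2 (1.07). The SD within groups was 1.87 on the log2 scale, against a median of 0.44 over all tested genes, and 98.3% of tested genes had a smaller one. For libraries of the same number the ratio of EVL to non-EVL was 1.05, 0.780 and 1.11, although the labels do not say that a number marks a shared clutch or day.

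foxi1, a forkhead gene needed for otic placode formation, had 470, 345 and 879 normalised reads in EVL libraries, against 1451, 811 and 1905 in non-EVL libraries. EVL library 3 lay above non-EVL library 2, and all other EVL libraries lay below the whole non-EVL group. The means were 565 ± 279 in EVL and 1389 ± 550 in non-EVL libraries (SD, n = 3 each), a 2.50-fold difference that missed the threshold (log2 fold change -1.32, 95% interval -2.27 to -0.37; limma, adjusted p = 0.0944). DESeq2 called it lower in EVL (log2 fold change -1.29, adjusted p = 0.0316), as did limma without EVL library 3 (-1.70, adjusted p = 0.0364), and over the 21 alternatives the log2 value ran from -1.70 to -1.02 and the adjusted p from 0.00148 to 0.280.

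dlx5a, a homeobox gene of later ventral ectoderm border and branchial arches, was close to the limit of detection. It had 63.2, 0 and 7.89 normalised reads in EVL libraries, against 0.869, 2.76 and 3.52 in non-EVL libraries, which are 48, 0 and 7 reads in EVL and 1, 3 and 5 reads in non-EVL libraries. The count of 0 in EVL library 2 allows a level of up to 3.32 normalised reads. EVL library 1 held most of the dlx5a reads, and the gene did not reach 10 normalised reads in 3 libraries, so it was not tested. With a limma fit on all genes with at least 1 read and no filter, the log2 fold change was 1.39 (adjusted p = 0.653), and without EVL library 1 it was -0.09, so the direction rested on that library.

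**Figure D3:**
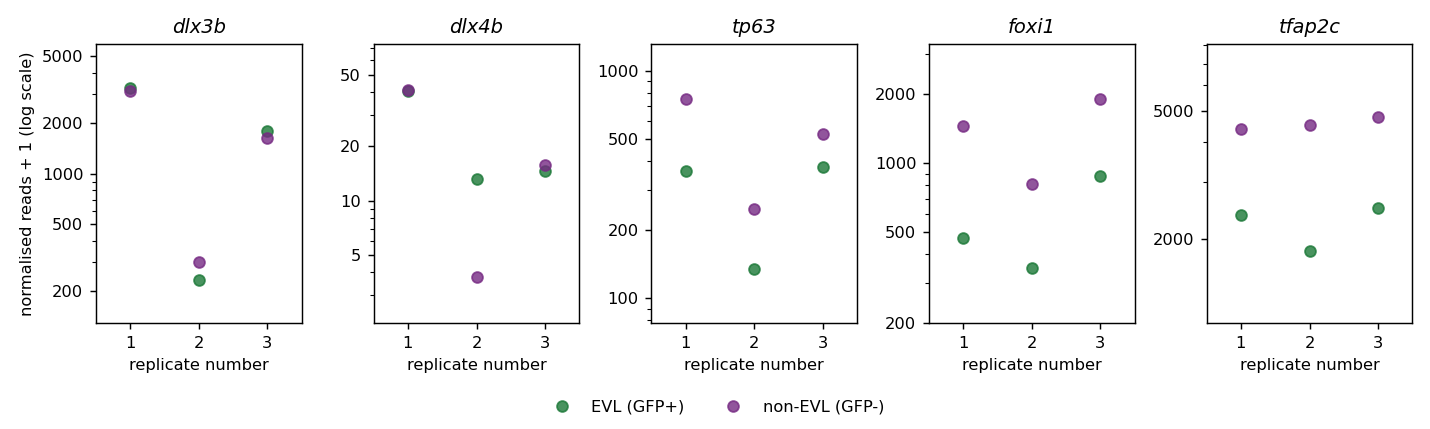
Normalised reads plus 1, on a log axis, against the replicate number in the labels for dlx3b, dlx4b, tp63, foxi1 and tfap2c, EVL in green and non-EVL in purple. dlx3b is at 234 in EVL library 2 and 300 in non-EVL library 2, tp63 and foxi1 are also lowest in library 2 of both groups, and tfap2c stays between 1840 and 2504 in EVL and between 4395 and 4800 in non-EVL libraries.

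Of the 8 factors, 7 passed the filter and were tested. gata3 was called higher, 1 of 7, where 8.80% of all tested genes were called higher, and tfap2c was called lower, 1 of 7, where 0.676% of all tested genes were called lower. The other 5 tested factors were not called, which does not show that their levels were equal. The median log2 fold change was -0.05 over the 7 factors and -0.06 over all tested genes. All 3 EVL libraries were above all 3 non-EVL libraries for tfap2a and gata3, 2 of 8 factors, a pattern that 17.4% of all tested genes showed. The reverse held for tfap2c, 1 of 8, and for 13.5% of all tested genes. All 7 tested factors except dlx3b kept their sign under every scaling tried.

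**Figure D4:**
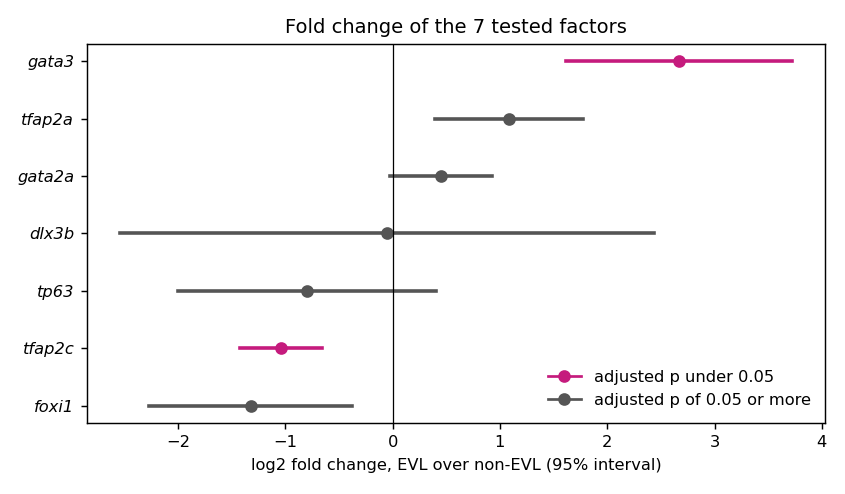
Log2 fold change of EVL over non-EVL for the 7 tested factors, with 95% intervals from limma as bars, called genes in magenta, the others in grey and a vertical line at 0. gata3 lies at 2.67 and tfap2c at -1.04, the unadjusted intervals of both and of tfap2a and foxi1 are clear of 0, and the interval of dlx3b runs from -2.54 to 2.44.

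Across the 6 libraries the factors fell along more than 1 line, given here as a description over 6 points that share the group difference and the library. The log2 levels of tfap2a and gata3 had a Pearson r of 0.944, tfap2a and gata2a of 0.906, and gata2a and gata3 of 0.837. Among other pairs, tfap2c and foxi1 had an r of 0.864, tp63 and dlx3b of 0.854, and tp63 and foxi1 of 0.821. The r of dlx3b was also positive with tfap2a (0.423), gata2a (0.201) and gata3 (0.297). tfap2c ran against gata3, with an r of -0.870. tfap2a and tp63 had an r of -0.10.

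For each tested factor, the most similar tested genes over the 6 libraries were also taken by Pearson r of the log2 values. For gata3 these were atf5b (r = 0.999), a leucine-zipper factor called higher (log2 fold change 3.15; limma, adjusted p = 0.0154), and traf6 (r = 0.998), a signalling adaptor called higher (1.44; limma, adjusted p = 0.0366). For tfap2a they were the kinase gene prkd2 and the autophagy protease gene atg4da, each with an r of 0.999, and for gata2a ankrd22 (r = 0.997) and rad51d (r = 0.993). tp63 ran closest to the DNA repair gene xrcc3 (r = 0.998) and the zinc-finger gene zic4 (r = 0.996). foxi1 ran closest to sox19b (r = 0.995), a SoxB1 factor of early ectoderm, and CCDC57 (r = 0.992), tfap2c to tnxb (r = 0.994) and ppp1r9ba (r = 0.988), and dlx3b to baz2ba (r = 0.995) and DMBX1 (r = 0.992). With 6 libraries and 15971 genes such values are reached for many pairs, and these are descriptions only.

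Relatives of the factors were read at very different levels. Among AP-2 genes, tfap2b stayed at 22.1 normalised reads or less and tfap2d at 21.4 or less in every library, neither was tested, and tfap2e had a log2 fold change of 0.43 (limma, adjusted p = 0.863, not called). Among GATA genes, gata5, an endoderm and heart factor, had 2646, 6108 and 3593 normalised reads in EVL libraries, against 2680, 2031 and 1245 in non-EVL libraries. Its groups overlapped through EVL library 1, and its log2 fold change of 1.03 did not pass the threshold (limma, adjusted p = 0.133), nor did that of gata6 (-0.50; limma, adjusted p = 0.593). gata1a was listed at 0 in every library, and gata1b, gata2b and gata4 reached at most 3.95 normalised reads.

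In the Dlx family, dlx4b, the neighbour of dlx3b in the genome (r = 0.804), had 39.5, 12.2 and 13.5 normalised reads in EVL libraries, against 40.0, 2.76 and 14.8 in non-EVL libraries. Library 2 was the lowest of each group, but in EVL it held 11 reads against 12 in library 3. EVL library 2 held 211 reads of dlx3b, against 1594 in EVL library 3. In non-EVL library 2 dlx4b rested on 3 reads. dlx2a had 56.6, 0 and 41.7 in EVL libraries, against 82.5, 0 and 43.7 in non-EVL libraries. Neither dlx4b (log2 fold change 0.56; limma, adjusted p = 0.773), dlx2a (-0.20; limma, adjusted p = 0.967) nor dlx4a (0.38; limma, adjusted p = 0.817) was called, and dlx1a, dlx2b and dlx6a were not tested. foxi3a, a forkhead gene of skin ionocytes, had 67.2, 1.11 and 11.3 normalised reads in EVL libraries, against 18.2, 0 and 13.4 in non-EVL libraries, and was not called (0.89; limma, adjusted p = 0.778).

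Whether strand was used in counting is not given, so genes that overlap a factor could share its reads. In the RefSeq table of the GRCz12tu assembly, used here for gene order only, the span of tfap2a overlaps tmem14ca, that of gata2a overlaps pbrm1 and that of dlx5a overlaps trioa. tmem14ca stayed at 155 normalised reads or less and pbrm1 at 52.2 or less in every library, far under tfap2a and gata2a. trioa ran between 836 and 1362 in EVL and between 537 and 899 in non-EVL libraries, above every dlx5a value, and how the reads of these 2 genes were divided was not tested. The neighbour of gata3, the transcription initiation gene taf3, stood at a log2 fold change of -0.22 (limma, adjusted p = 0.471, not called).

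Partners of the factors were called about as often as all genes. Of 13 tested cofactor genes 1 was called higher, where 8.80% of all tested genes were, and this was lmo2, a LIM-domain protein that bridges GATA factors in blood cells, with 2821, 2356 and 1236 normalised reads in EVL libraries, against 39.1, 159 and 100.1 in non-EVL libraries. All EVL libraries lay far above all non-EVL libraries (log2 fold change 4.54; limma, adjusted p = 0.00126). tal1, its bHLH partner in blood cells, reached at most 9.96 in EVL and 11.3 in non-EVL libraries and was not tested. cited4b, from the family of CBP/p300-binding proteins that act with AP-2, was the most abundant partner not called (-0.23; limma, adjusted p = 0.600). The median log2 fold change of the 13 genes was -0.08.

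Genes of the BMP pathway lay mostly on the lower side, with a negative log2 fold change for 27 of 36 tested genes, where 8599 of all 15971 tested genes had one. The list mixes ligands, inhibitors, receptors and targets. The 9 genes with a positive value included id2a (limma, 0.73, adjusted p = 0.143), id3 (limma, 0.37, adjusted p = 0.551) and tll1 (limma, 1.49, adjusted p = 0.0573), none of them called. The largest of the 9 was that of the homeobox gene msx2b, listed as msxd (limma, 2.75, adjusted p = 0.204, not called). Its mean was low, at 38.3 normalised reads in EVL and 5.46 in non-EVL libraries. Of the 36 genes 4 were called, all lower in EVL, where 0.676% of all tested genes were called lower (2 with edgeR and, with DESeq2, 7 lower and 1 higher), and the median log2 fold change was -0.32, against -0.06 over all tested genes. szl, the secreted inhibitor sizzled, had 125, 126 and 232 normalised reads in EVL libraries, against 810, 601 and 744 in non-EVL libraries (log2 fold change -2.20; limma, adjusted p = 0.00307). The homeobox targets msx3, listed as msxc (-1.93; limma, adjusted p = 0.0378), and eve1 (-1.48; limma, adjusted p = 0.0389) and the ligand bmp4 (-0.91; limma, adjusted p = 0.0491) were also lower. id1, a direct target of BMP signalling and the most abundant of those not called, had 6538, 3883 and 9899 normalised reads in EVL libraries, against 10259, 9403 and 13322 in non-EVL libraries (-0.78; limma, adjusted p = 0.190). eve1 is also a ventral mesoderm gene, and summed over 11 mesoderm markers the EVL libraries held 35928 to 62099 normalised reads and the non-EVL libraries 71123 to 74486. The part of mesoderm cells in these differences, and in that of tfap2c, was not tested.

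Genes known as p63 targets in mammals were often higher in EVL. Of 14 tested genes 7 were called, all higher in EVL, where 8.80% of all tested genes were called higher, and the median log2 fold change was 2.07, against -0.06 over all tested genes. They included znf750, an epidermal differentiation factor (log2 fold change 4.56; limma, adjusted p = 0.000647), perp, a desmosome protein (3.69; limma, adjusted p = 0.000703), grhl3, a grainyhead factor (4.50; limma, adjusted p = 0.000881), and pkp1b, a plakophilin of desmosomes (4.89; limma, adjusted p = 0.00236). Of the list, 3 genes, grhl3 and znf750 among them, were also on the list of EVL markers. cdkn1a, a cell cycle inhibitor, was not called (0.10; limma, adjusted p = 0.905). The basal keratin gene krtt1c19e had 0, 4.43 and 5.64 normalised reads in EVL libraries and was listed at 0 in all non-EVL libraries, and it was not tested.

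Fates next to the ventral ectoderm were read as well. Of 12 tested placode and neural crest genes limma called 0, with 1 at an unadjusted p under 0.05, edgeR called 0 and DESeq2 called 1, and the median log2 fold change was 0.09. Over all tested genes limma called 8.80% higher and 0.676% lower, so a count of 0 in 12 is near that background. six4a, the most abundant of them, had 789, 1060 and 820 normalised reads in EVL libraries, against 1828, 1501 and 916 in non-EVL libraries (log2 fold change -0.62; limma, adjusted p = 0.226). The neural crest gene foxd3 was listed at 0 in all EVL libraries and reached 0.869 in non-EVL libraries. Of 21 tested neural plate genes 3 were called, all lower in EVL, where 0.676% of all tested genes were called lower. Among them were the SoxB1 factors sox2 (-1.05; limma, adjusted p = 0.00742) and sox3 (-1.09; limma, adjusted p = 0.0317). The median log2 fold change of the 21 genes was -0.63, against -0.06 over all tested genes, and zic2b, the most abundant not called, stood at -0.57 (limma, adjusted p = 0.303). tfap2c, a gene of non-neural ectoderm, had a difference of about the same size as sox2 and sox3 (-1.04).

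The level left in the other fraction differed between factors. gata3 in non-EVL libraries was 16.3% of its EVL level, within the range of 1.89% to 27.2% seen for the 22 EVL markers, and tfap2a was 44.8%, above that range. tfap2c in EVL was 49.0% of its non-EVL level. For comparison, mesoderm markers in EVL stood at a median of 55.4% of their non-EVL level and germ cell markers at 23.0%, with 1851 to 4197 normalised reads summed over 7 germ cell markers in EVL and 4521 to 7575 in non-EVL libraries. Of 7 endoderm markers 3 were called higher (sox32, sox17 and foxa2), where 8.80% of all tested genes were called higher. The endoderm marker mixl1 went the other way (log2 fold change -0.86; limma, adjusted p = 0.597, not called), and foxa3 stood at 0.03. Sums over the endoderm list were 33294 to 67179 in EVL and 13883 to 18323 in non-EVL libraries. Those of dorsal organizer markers overlapped (14408 to 22221 in EVL and 16716 to 24380 in non-EVL libraries, 8 genes). Yolk syncytial layer markers were low in both, with sums of 173 to 507 in EVL and 296 to 495 in non-EVL libraries over 7 genes, and apoa4b.1 was listed at 0 throughout. EVL library 1, which had the highest sum of EVL markers and the lowest of mesoderm markers, also had the highest tfap2a, gata2a and gata3. Without it the log2 fold changes were 0.73 for tfap2a, 0.28 for gata2a and 2.30 for gata3, and that of tfap2c was -1.09.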

How the data were processed

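The deposited files held 1 normalised signal value per gene and library, which equalled whole reads divided by a DESeq2 size factor. Whole reads were recovered for 100% of values, within 0.01 read. The submitters' processing notes name Trim Galore, STAR 2.6.1d, the danRer10 build, featureCounts and DESeq2. The annotation, the use of strand and the number of GFP- cells are not given in the sources used here. Per the labels, 50 nt single-end SMARTseq2 libraries were made from RNeasy Micro RNA. Such libraries carry no molecular identifiers, so intervals and floors cover counting error only, and 3 reads was the floor for a count of 0.

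Genes that reached 10 normalised reads in 3 or more libraries, 15971 in all, were tested with limma 3.58.1 (R 4.3.3). Levels entered as log2(value + 1), and the fit held the group alone, with a mean-variance trend and robust shrinkage. Benjamini-Hochberg adjusted p under 0.05 over all tested genes made a call. Fold changes are on that log2 scale, which understates changes of low genes. edgeR 4.0.16 with TMM on the recovered reads called 1409 genes higher and 54 lower, and DESeq2 1.42.0 called 1994 higher and 327 lower. Ratios and sums of pairs were tested with exact permutation over libraries, and Wilson intervals were computed on reads. The fits were tested on simulated data, with 50 genes changed at each of several sizes. When the planted change was 2-fold, only 4% of these genes were called. The called part was 68% when the change was 4-fold, and it reached 94% when the change was 16-fold. There were 131 calls in all, 9 of them false. The real fit called 1405 genes higher and 108 lower, so its cut-off on p was less strict than in the simulation. The planted genes were drawn from all genes with a mean of 10 or more. The 4% is therefore not the rate for these factors, and tfap2c was called at 2.06-fold. A missing call still does not show that a gene did not differ by about 2-fold. Nothing says that the libraries came from separate cultures or clutches, so p-values measure only how these samples vary, and that variation may be technical.

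The members, lists and tests were chosen with earlier results of these data known. Named genes are all members and krt18, tested genes of the 5 families, up to 4 called genes with the smallest adjusted p and the most abundant uncalled gene of each other list, and the 2 genes most like each member. Some genes this rule names are not reported here. Untested relatives, neighbours, tal1, krtt1c19e, foxd3, id2a, id3, tll1 and msx2b were named after their values were seen. Neighbours and names came from the RefSeq table of GRCz12tu and a symbol table that matched 26121 of 31953 identifiers. Some listed names, tfap2b and id1 among them, matched 2 identifiers. For these only the identifier with the larger sum over the 6 libraries was read, and the other is not reported here.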

Additional observations from a re-analysis of the deposited data

How the results depend on the processing

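tfap2a was called higher with DESeq2 (log2 fold change 1.17, adjusted p = 0.0121) and with no filter on low values (limma, 1.08, adjusted p = 0.0496), and not with edgeR (adjusted p = 0.0547). foxi1 was called lower with DESeq2 (-1.29, adjusted p = 0.0316), after upper quartile scaling (limma, -1.60, adjusted p = 0.0371) and without EVL library 3 (limma, -1.70, adjusted p = 0.0364). dlx3b turned positive with edgeR (0.11), with DESeq2 (0.084) and without EVL library 2, non-EVL library 1 or non-EVL library 3 (1.07, 0.67 and 0.20). Leaving out 1 library at a time gave -1.02 to 1.07 for dlx3b, -1.70 to -1.02 for foxi1, 0.73 to 1.27 for tfap2a, -1.13 to -0.90 for tfap2c, 2.21 to 3.04 for gata3, 0.28 to 0.62 for gata2a, -1.25 to -0.32 for tp63 and -0.09 to 2.92 for dlx5a, with tfap2c and gata3 called each time. It gave 1 member higher each time, 1 to 2 members lower, 995 to 1304 genes higher and 14 to 77 genes lower. Members called higher numbered 2 with DESeq2, where 1994 of 15971 tested genes were called higher. They also numbered 2 with no filter, where 1504 of 25863 tested genes were. Members called lower numbered 2 with DESeq2 and after upper quartile scaling, where 327 and 572 of 15971 tested genes were called lower. All genes called lower numbered 54 with edgeR, 930 with library size alone, 572 after upper quartile scaling, 174 after scaling to all reads but those of AC024175.4, 327 with DESeq2 and 41 with voom, against 108. The median log2 fold change of all genes was -0.37, -0.33 and -0.22 under those 3 scalings (library size, upper quartile and reads without AC024175.4). Relative to that median, tfap2a stood between 1.14 and 1.21, tfap2c between -0.99 and -0.96 and gata3 between 2.64 and 2.72. The cause of these changes was not tested. dlx5a, with 0 to 7 reads in all libraries but EVL library 1, was left out by the filter, and its ratio to dlx3b is not given because the added 1 sets it.

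Libraries of the same number share only a number in the labels. Their deviations correlated at 0.259, 0.328 and 0.0748 over 15971 genes, and each library correlated best with its own number, a hint from the data and not the design. With the replicate number as a block (limma), tfap2a was called higher (1.08, adjusted p = 0.0209) and foxi1 lower (-1.32, adjusted p = 0.00761), and tp63 (adjusted p = 0.0744) and gata2a were not called. In that fit 2 members were higher and 2 lower, and 1573 genes were higher and 279 lower. Of the neural plate genes 8 were lower, and of the BMP pathway genes 7 were lower and 2 higher. The replicate term itself was called for 2 genes, dlx3b and eno1a (limma, adjusted p = 0.0374 each). Fits added after seeing the data were edgeR with the block, and limma with the block without both libraries of 1 number. With edgeR and the block, tfap2a stood at 1.13 (adjusted p = 0.0340), foxi1 at -1.27 (adjusted p = 0.0154) and dlx3b at 0.0050. That edgeR fit called 2 members each way, and 1328 of all tested genes higher and 124 lower. In limma with the block and without number 1, tfap2a (0.82, adjusted p = 0.00374) and foxi1 (-1.17, adjusted p = 0.00148) were called. That fit called 2 members each way, and 1713 genes higher and 503 lower. Without number 3, tfap2a (1.31, adjusted p = 0.00536) and foxi1 (-1.43, adjusted p = 0.0147) were called, with 2 members each way and 1602 genes higher and 149 lower. Without number 2, 0 genes were called higher and 0 lower, dlx3b stood at 0.11, tfap2c at -0.91 (adjusted p = 0.106) and gata3 at 2.32 (adjusted p = 0.0565).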

Other observations

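dlx3b was not alone in being far lower in the library numbered 2 of each group, a pattern looked for after its values were seen. In 104 of 15971 tested genes (0.651%) library 2 was the lowest of its group in both groups and held less than 33.3% of the next library. Among the listed genes these were dlx3b, dlx2a and foxi3a of the families here, msx2b of the BMP list, pax3a, pax2a and prdm1a of the 12 tested placode and neural crest genes, and zic1, rx3 and fezf2 of the 21 tested neural plate genes. prdm1a, a factor of neural crest and sensory neuron precursors, had 1387, 193 and 1148 normalised reads in EVL libraries, against 2469, 111 and 700 in non-EVL libraries. rx3, an eye field gene, had 723, 34.3 and 116 in EVL libraries, against 1377, 23.9 and 180 in non-EVL libraries. None of the 22 EVL markers, 7 endoderm markers or 7 germ cell markers showed library 2 lowest in both groups, where 15.2% of all tested genes did. What sets these libraries apart is not given in the labels.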
